A study of Saccharomyces cerevisiae with 12 samples.

Results

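Poly(A) RNA of wild-type (WT) budding yeast was compared after tunicamycin treatment and without it. The comparison takes all genes of 6 of the 12 libraries in the series, namely 3 libraries of WT cells treated with tunicamycin at 1 μg/ml for 3 h and 3 libraries of untreated WT cells. The other 6 libraries are from *ups1*Δ cells and were used only in an alternative fit. Cells of both groups were of the S288c background and grew in synthetic complete glucose medium (SCD) at 30 °C to log phase, and each group is a set of biological triplicates. Tunicamycin was dissolved in DMSO, and the labels give no vehicle for the untreated cells. Whether the untreated cultures were kept for a further 3 h is not stated either, so solvent, culture time and drug cannot be told apart. Both groups also share their marker genes, since *URA3*, *LEU2*, *LYS2* and *MET17* had 0 counts in all 6 libraries.

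Tunicamycin blocks N-glycosylation of secretory proteins at its start, the step catalyzed by Alg7, which attaches the first sugar phosphate to the lipid carrier dolichol. Misfolded proteins in the ER then activate the kinase and nuclease Ire1, which splices the messenger RNA of the transcription factor Hac1 and so turns on the unfolded protein response (UPR). Yeast cells also sense damage to the cell wall through the Pkc1-Slt2 kinase cascade, calcium through calcineurin, and adverse growth conditions through the transcription factors Msn2 and Msn4 and the TORC1 kinase, which sets the synthesis of ribosomes.

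Total counts per library ranged from 4650828 to 4778960 in tunicamycin-treated cells and from 4964705 to 5684108 in untreated cells. The 50 most abundant features took 16.2% to 17.9% of the counts in treated libraries and 24.7% to 25.4% in untreated ones. Levels are given as CPM, the counts of a gene relative to library size times a TMM scaling factor (1.19 to 1.21 in treated and 0.834 to 0.838 in untreated libraries), and 3 counts corresponded to between 0.517 and 0.725 CPM. The Spearman correlation of log CPM was at least 0.978 between libraries of a group and between 0.734 and 0.801 across the groups. Treated replicate 2 stood apart from the other treated libraries. In 49 genes it lay below both of them by at least 1 on the scale of log2(CPM + 1), and in 10 genes it lay above both, while each of the other 5 libraries did so in at most 12 genes in all. Many of the results that rest on this library are given with and without it.

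Of 5785 genes tested, 4417 differed between tunicamycin-treated and untreated cells (76.4%, adjusted p-value under 0.05 in edgeR's quasi-likelihood test with Benjamini-Hochberg adjustment). Of these, 2278 were higher (39.4%) and 2139 were lower (37.0%). A log2 fold change of 1 or more in size was found for 1033 higher genes (17.9%) and 990 lower genes (17.1%). The groups did not overlap for 4634 genes (80.1%), with the treated libraries above in 2401 (41.5%) and below in 2233 (38.6%). These percentages are the background for the counts in gene lists below. Over all genes tested, the log2 fold change had a median of 0.05 with TMM factors and 0.57 with library size only. A list median is therefore read beside the median of all genes, and the sign of a list or gene is given under both where it depends on this choice. A bare number in parentheses after a gene is its log2 fold change of treated over untreated cells. In bulk RNA, fewer cells of a kind and less RNA per cell cannot be told apart. Besides the genes named by a fixed rule, 91 genes are named as the exceptions of a list or as paralogs, partner subunits and regulators, a choice made after their values were seen.

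**Figure D1:**
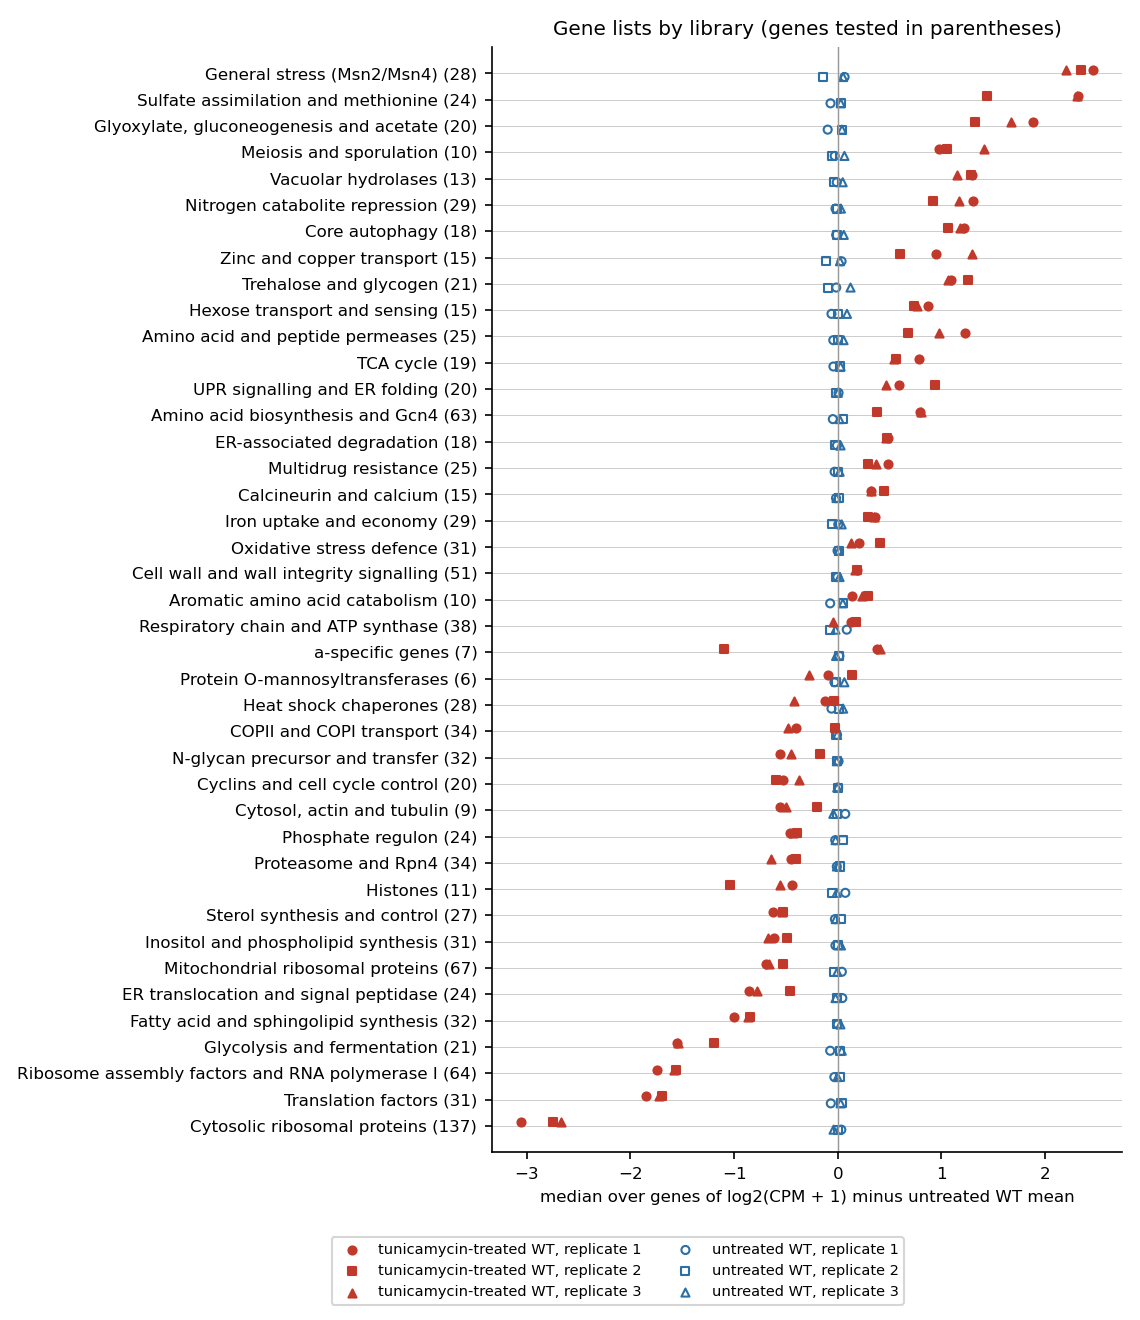
Median level of each gene list with at least 5 genes tested, per library, as log2(CPM + 1) minus the mean of the untreated libraries (horizontal axis), with filled red symbols for the 3 tunicamycin-treated libraries and open blue symbols for the 3 untreated ones. The treated libraries lay highest for general stress genes (2.47, 2.35 and 2.20) and lowest for cytosolic ribosomal proteins (-3.06, -2.74 and -2.67), and treated replicate 2 lay apart from the others for the a-specific genes (0.38, -1.10 and 0.41).

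Genes of the UPR and of protein folding in the ER were higher after tunicamycin in 14 of 20 members and lower in 3, with a median log2 fold change of 0.72. *KAR2* (YJL034W), on chromosome X from 381327 to 383375 in R64 (sacCer3), encodes the ER Hsp70 chaperone BiP. Its level was 3326, 5381 and 2813 CPM in the treated libraries, against 919, 959 and 996 CPM in the untreated libraries. Every treated library was above every untreated library, with treated replicate 2 the highest (log2 fold change 2.0, SE 0.23, adjusted p = 2.94e-05 from edgeR). *HAC1*, whose gene counts do not separate spliced from unspliced messenger RNA, had 1020.0, 1092 and 898 CPM in treated cells and 250.0, 253 and 296 CPM in untreated cells (log2 fold change 1.91, SE 0.13, adjusted p = 6.22e-07 from edgeR). *ERO1*, the oxidase that drives disulfide formation in the ER, had 648, 850.4 and 545 CPM in treated cells and 189, 193 and 196 CPM in untreated cells (log2 fold change 1.82, SE 0.16, adjusted p = 3.84e-06 from edgeR). These 3 genes rose by similar factors, and their groups did not overlap. *PDI1*, protein disulfide isomerase, rose less, with 1589, 2276 and 1395 CPM in treated cells and 956, 1017 and 1106 CPM in untreated cells (log2 fold change 0.77, adjusted p = 0.00324 in edgeR). *ULI1*, a small gene that the UPR induces, had the largest change of the list (log2 fold change 4.05), with 32.6, 134 and 29.6 CPM in treated cells and 4.61, 2.42 and 4.64 CPM in untreated cells. Treated replicate 2 lay far above the other treated libraries for this gene, and without it the log2 fold change was 2.96. Among the cochaperones of Kar2, *SIL1* (log2 fold change 1.65), *JEM1* (1.35), *LHS1* (1.04) and *SCJ1* (0.61) rose. The members that fell were *TRL1* (log2 fold change -0.65), the ligase that joins the *HAC1* exons, *CPR5* (-0.65), a prolyl isomerase, and *EPS1* (-0.34). With library size only *TRL1* and *CPR5* missed the threshold (log2 fold change -0.13 each), and the sign of *EPS1* turned (0.18). *IRE1* (log2 fold change 0.16, adjusted p = 0.183 in edgeR), *ERV2* (-0.31) and *CNE1* (-0.21) were not past the threshold, although *ERV2* was without treated replicate 2 (-0.46) and *CNE1* was without untreated replicate 2 (-0.27). The list stood at 0.59, 0.94 and 0.46 in treated replicates 1, 2 and 3, relative to untreated cells, and its median was 0.50 without replicate 2, with 14 members higher and 4 lower.

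Examples of the sites that Hac1 is known to bind are shown for *KAR2*, *LHS1* and *ERO1*, since Hac1 is the transcription factor of the response. The promoter of each gene, taken as the 500 bases before the start codon in the RefSeq annotation of R64, was searched on both strands for the UPR element CAGCGTG and for a further Hac1 site with the letters TACGTG. The first was found in 2 of 20 promoters of the list, those of *KAR2* and *LHS1*, and in 2.31% of all 5986 promoters. The second was found in 5 of 20, namely *SIL1*, *EUG1*, *MPD1*, *ERO1* and *ULI1*, and in 13.0% of all promoters. A looser form of the UPR element, CAGNGTG with any base at N, was also searched. It was found in 3 of 20, namely *KAR2*, *LHS1* and *TRL1*, and in 10.2% of all promoters. In promoters of genes that rose, CAGCGTG was present in 2.96%, CAGNGTG in 10.5% and TACGTG in 13.7%. In those of genes that fell, the shares were 1.59%, 9.89% and 13.1%. Each sequence is on the strand of its gene, with the match in capitals, which reads as the reverse complement in *LHS1*. A match is a description of the letters and does not show binding.
KAR2 (chrX:381156-381185, plus strand): gaggaactggaCAGCGTGtcgaaaaagttg
LHS1 (chrXI:296320-296349, plus strand): ataatatcgaaCACGCTGttataaaagtga
ERO1 (chrXIII:13296-13324, minus strand): acgatacggagTACGTGtcataaaaactt

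Components of ER-associated degradation, which extracts misfolded proteins from the ER and passes them to the proteasome, were higher in 11 of 18 members and lower in 4 (median 0.49). *USA1*, the scaffold of the Hrd1 ubiquitin ligase, had 177, 180.4 and 159 CPM in treated cells and 67.5, 58.2 and 68.6 CPM in untreated cells (log2 fold change 1.41, SE 0.09, adjusted p = 5.73e-07 from edgeR). *DFM1*, a derlin that serves the retrotranslocation of membrane proteins, had 284, 259 and 226 CPM in treated cells and 115, 100.01 and 108 CPM in untreated cells (log2 fold change 1.25, adjusted p = 2.71e-06 in edgeR). Further members of the Hrd1 branch rose, namely *HRD1* (log2 fold change 0.92), *HRD3* (0.78), *DER1* (1.05) and the glycan-reading lectin *YOS9* (0.59). The ligase *SSM4* (log2 fold change -0.67), also called Doa10, and its ubiquitin-conjugating enzyme *UBC6* (-0.65) fell, but both missed the threshold with library size only (-0.15 and -0.13). The mannosidase genes *MNL1* (log2 fold change -0.24) and *MNL2* (-0.26) were slightly lower, but their signs turned with library size only (0.28 and 0.26), and neither was past the threshold without untreated replicate 2, nor *MNL1* without untreated replicate 3. The core ATPase *CDC48* (log2 fold change -0.14) and its cofactor *UFD1* (0.14) were not past the threshold, but *CDC48* was without treated replicate 2 (-0.28).

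The pathway that tunicamycin blocks did not move as a whole in the direction of the UPR. Of 32 genes for the synthesis and transfer of the N-glycan precursor, 6 were higher and 17 were lower. The median was -0.38, below the median of all genes, and it was 0.13 with library size only, where the all-gene median was 0.57. Without treated replicate 2 the median was -0.52, with 6 members higher and 22 lower. *ALG7* itself (YBR243C, chromosome II), the target of the drug, had 67.3, 107 and 63.8 CPM in treated cells and 98.8, 104 and 99.8 CPM in untreated cells. The groups overlapped, and the gene was not past the threshold (log2 fold change -0.35, adjusted p = 0.112 in edgeR). Without treated replicate 2, the highest of all 6 libraries, it was lower and past the threshold (log2 fold change -0.64, adjusted p = 3.40e-05 in edgeR). The 2 largest increases were in genes that make UDP-N-acetylglucosamine, a sugar donor for N-glycans and for chitin. *GFA1*, which catalyzes the committed step, had 1047, 1057 and 882 CPM in treated cells and 317, 344 and 321 CPM in untreated cells (log2 fold change 1.60, SE 0.12, adjusted p = 1.24e-06 from edgeR). *PCM1* of the same route rose as well (log2 fold change 1.23), whereas *GNA1* (-0.74) and *QRI1* (-0.83), its other enzymes, fell, of which *GNA1* missed the threshold with library size only (-0.23). *SEC59*, the kinase that makes dolichol phosphate, rose (log2 fold change 0.99). *ALG5*, which makes the glucose donor dolichol-phosphate-glucose, had 23.0, 38.1 and 30.2 CPM in treated cells and 116, 96.9 and 97.9 CPM in untreated cells, and this was the largest decrease of the list (log2 fold change -1.77). In the oligosaccharyltransferase, the complex that moves the glycan to the protein, 7 of 9 subunit genes fell, among them *OST5* (log2 fold change -1.44), *OST1* (-1.08) and the catalytic subunit *STT3* (-0.66), which missed the threshold with library size only (-0.14). Its other members *OST2* (log2 fold change 0.31) and *SWP1* (-0.08) were not past the threshold. *SWP1* was past it without treated replicate 2 (log2 fold change -0.18), and *OST2* without treated replicate 3 (0.38) or untreated replicate 1 (0.47).

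**Figure D2:**
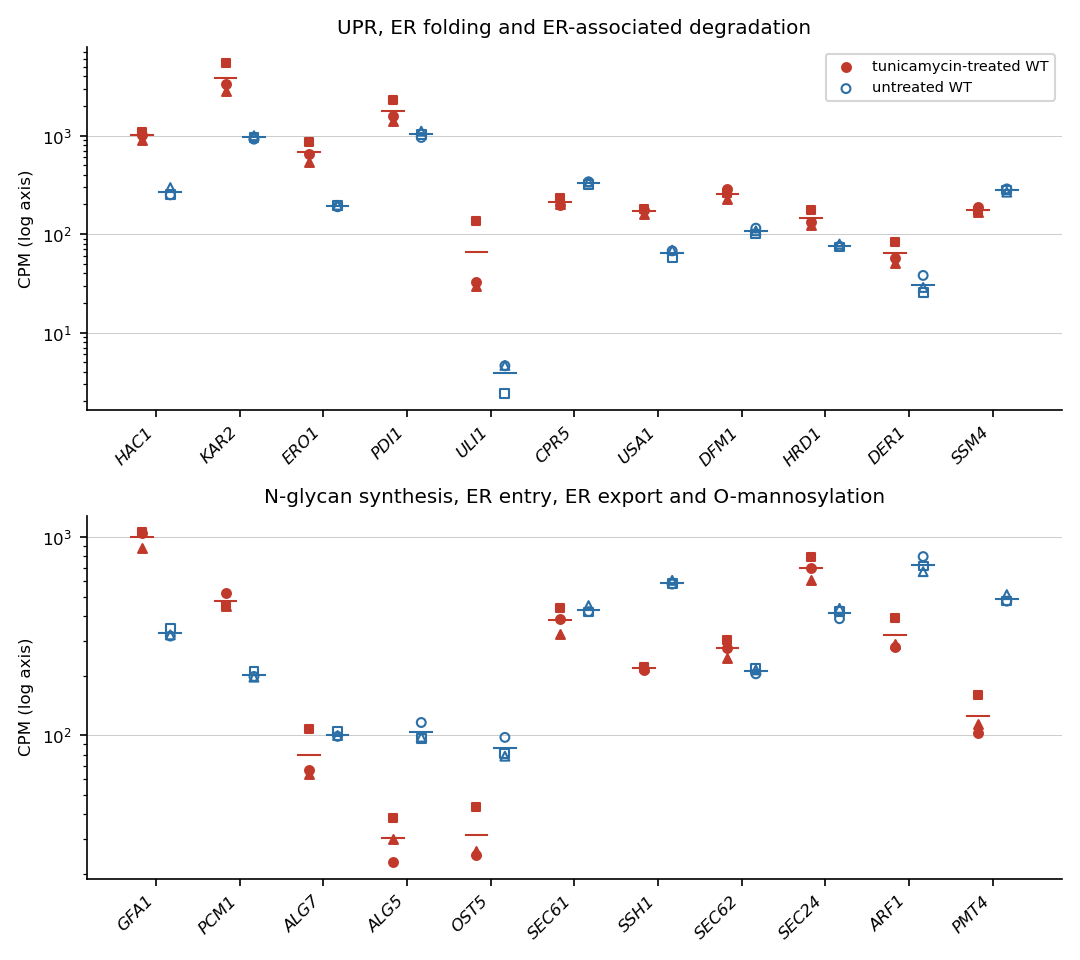
Levels of secretory pathway genes in CPM (log axis), with filled red symbols for the 3 tunicamycin-treated libraries to the left of open blue symbols for the 3 untreated libraries, symbol shape for the replicate number and lines for group means. The treated libraries lay above the untreated ones for *HAC1*, *KAR2*, *ERO1*, *USA1* and *GFA1*, overlapped them for *ALG7* and *SEC61*, and lay below them for *ALG5*, *SSH1* and *PMT4*.

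Genes for entry into the ER fell almost throughout. Of 24 members for the translocon, the signal recognition particle (SRP), the signal peptidase and the GET pathway of tail-anchored proteins, 21 were lower and 1 was higher (median -0.68). The exception was *SEC62*, a partner of the translocon in posttranslational import, with 274, 303 and 247 CPM in treated cells and 204, 217 and 214 CPM in untreated cells (log2 fold change 0.38, adjusted p = 0.00537 in edgeR). The central channel subunit *SEC61* had 388, 439 and 323 CPM in treated cells and 420.5, 419 and 451 CPM in untreated cells, and the groups overlapped (log2 fold change -0.17, adjusted p = 0.242 in edgeR). It was past the threshold without treated replicate 2 (log2 fold change -0.29). Its homolog *SSH1*, which forms a second translocon, fell with no overlap, with 213, 221 and 220.1 CPM in treated cells and 579, 581 and 605 CPM in untreated cells (log2 fold change -1.43, SE 0.09, adjusted p = 5.36e-07 from edgeR). The subunit genes of the SRP receptor were among the decreases. With library size only the list median remained below 0 (-0.17). Without treated replicate 2, 23 members were lower and 1 was higher (median -0.82).

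Vesicle transport between the ER and the Golgi changed in parts. Of 34 genes, 5 were higher and 17 were lower, with a median of -0.30 that changed sign with library size only (0.22). The list stood at -0.40, -0.02 and -0.48 in treated replicates 1, 2 and 3, relative to untreated cells. Without treated replicate 2, 21 members were lower and 5 were higher (median -0.46). Of the cargo adaptors of the COPII coat, *SEC24*, with 701, 794 and 611 CPM in treated cells and 388, 420.3 and 437 CPM in untreated cells (log2 fold change 0.76, adjusted p = 3.25e-04 in edgeR), and *SFB2* (0.71) rose, while *SFB3* was not past the threshold (0.08). The exchange factor *SEC12* (log2 fold change 0.37), the cargo receptor *ERV29* (0.67) and the SNARE *BOS1* (0.25) were the other increases, of which *BOS1* (adjusted p = 0.0341 in edgeR) was not past the threshold without treated replicate 1 or 3 or untreated replicate 2 or 3. The decreases included the cargo receptors *ERV14* (log2 fold change -1.19) and *RER1* (-1.11) and the SNAREs *SEC22* (-1.14) and *BET1* (-1.09). The small GTPase *ARF1*, which recruits the COPI coat, had 280.3, 391 and 287 CPM in treated cells and 797, 714 and 669 CPM in untreated cells (log2 fold change -1.18). Among the 6 protein O-mannosyltransferases, which glycosylate secretory proteins on serine and threonine, *PMT3* (log2 fold change 0.84) and *PMT6* (0.50) rose and *PMT4* (-1.96) and *PMT5* (-0.54) fell, of which *PMT5* missed the threshold with library size only (-0.02). *PMT4* had 103, 159.6 and 114 CPM in treated cells and 475, 475 and 512 CPM in untreated cells, so that all treated libraries were below all untreated ones (log2 fold change -1.96, SE 0.16, adjusted p = 2.46e-06 from edgeR). *PMT1* (log2 fold change 0.15) and *PMT2* (-0.23), which encode the major enzyme pair, were not past the threshold, but *PMT2* was without treated replicate 2 (-0.38). The median of the 6 genes was -0.04, and it was 0.48 with library size only and -0.20 without treated replicate 2.

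Among 51 genes of the cell wall and of wall integrity signaling, 23 were higher (45.1%) and 16 were lower (31.4%). These shares were not far from those of all genes (39.4% and 37.0%). A change of at least 1 on the log2 scale was found for 17 of the higher and 9 of the lower members, against 17.9% and 17.1% of all genes. The median was only 0.19, since large changes in both directions stood side by side. *SLT2*, the MAP kinase at the end of the wall integrity cascade, had 1021, 884 and 961 CPM in treated cells and 115, 130.0 and 122 CPM in untreated cells. The groups were far apart (log2 fold change 2.96, SE 0.12, adjusted p = 7.94e-08 from edgeR). *GSC2*, also called FKS2, the glucan synthase subunit made under stress, had 2085, 2533 and 1608 CPM in treated cells and 102, 100.5 and 102 CPM in untreated cells (log2 fold change 4.35, SE 0.19, adjusted p = 8.90e-08 from edgeR). Its constitutive homolog *FKS1* was not past the threshold (log2 fold change -0.05, adjusted p = 0.733 in edgeR). *YPS3*, a GPI-anchored aspartyl protease of the cell surface, had 671, 881 and 599 CPM in treated cells and 35.5, 34.3 and 32.1 CPM in untreated cells (log2 fold change 4.40). *PIR3*, a wall protein linked to glucan, showed the largest increase of the list (log2 fold change 5.66, SE 0.56, adjusted p = 4.31e-05 from edgeR). It had 1211, 305 and 599 CPM in treated cells and 16.6, 14.5 and 10.976 CPM in untreated cells, and the treated libraries differed from each other by more than those of *SLT2*. Without treated replicate 1 the log2 fold change of *PIR3* was 5.0. *RLM1*, the transcription factor that Slt2 activates (log2 fold change 2.19), the sensors *MTL1* (2.89) and *MID2* (1.86), and the chitin synthases *CHS1* (2.44) and *CHS3* (1.12) rose as well. The kinases upstream of Slt2 were not past the threshold, with *PKC1* (log2 fold change 0.19), *BCK1* (-0.19), *MKK1* (0.07) and *MKK2* (0.19). Of these *BCK1* was past it without treated replicate 2 (log2 fold change -0.33). The decreases included glucan- and chitin-remodeling enzymes of growing cells. *UTR2*, a chitin transglycosylase, had 70.3, 81.0 and 98.1 CPM in treated cells and 863, 904 and 887 CPM in untreated cells (log2 fold change -3.41, SE 0.14, adjusted p = 8.82e-08 from edgeR). The homologous *CRH1* moved the other way (log2 fold change 2.58). *TIR1*, a mannoprotein of the wall, had 3.05, 1.45 and 3.62 CPM in treated cells and 37.3, 47.3 and 38.6 CPM in untreated cells (log2 fold change -3.90), and the glucanosyltransferases *GAS1* (-1.52) and *GAS3* (-2.48) fell. *CWP2*, an abundant wall mannoprotein, was near the threshold (log2 fold change -0.44, adjusted p = 0.0436 in edgeR) and was not past it when any of 5 of the 6 libraries was left out, nor with library size only, where the sign turned (0.08).

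**Figure D3:**
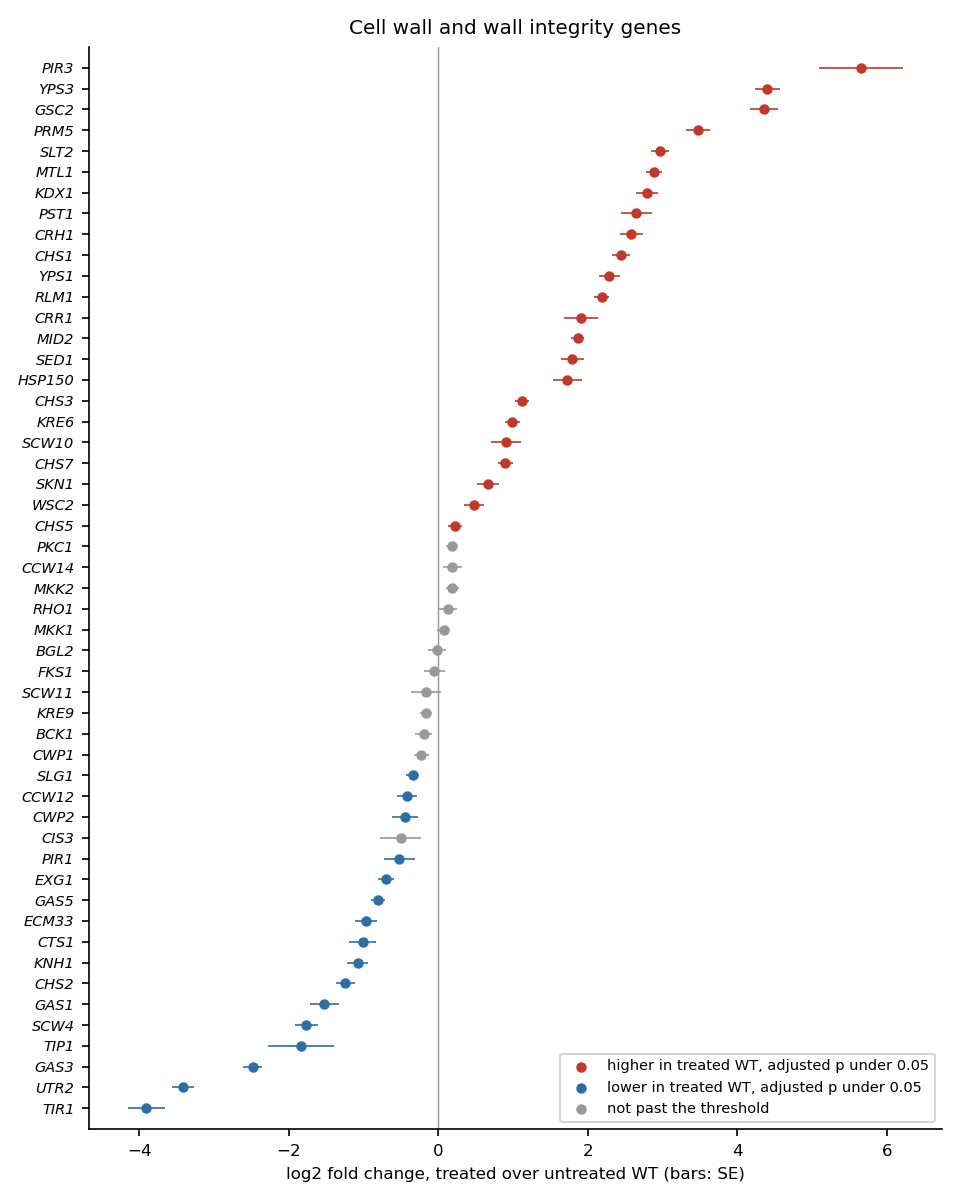
Log2 fold change of tunicamycin-treated over untreated WT cells for the 51 genes of the wall list (horizontal axis, points with SE bars), in red for genes past the threshold and higher, in blue for those past it and lower, and in gray for the rest. The genes range from *TIR1* (-3.90) to *PIR3* (5.66), and the gray points at the center include *PKC1* and *FKS1*.

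Genes of calcium signaling rose in 9 of 15 cases and fell in 4 (median 0.40). The increases were led by targets of calcineurin. *RCN2*, a regulator of calcineurin, had 347, 371 and 327 CPM in treated cells and 56.7, 58.7 and 67.8 CPM in untreated cells (log2 fold change 2.51, SE 0.10, adjusted p = 8.61e-08 from edgeR). *CMK2*, a calmodulin-dependent kinase, had 488, 526 and 449 CPM in treated cells and 87.8, 80.4 and 99.2 CPM in untreated cells (log2 fold change 2.45, adjusted p = 1.08e-07 in edgeR). Neither gene showed overlap between the groups. The transcription factor that calcineurin activates, *CRZ1*, rose less (log2 fold change 0.40), as did the vacuolar calcium pump *PMC1* (0.73). The subunits of the calcium channel of the plasma membrane, *CCH1* (log2 fold change -0.66) and *MID1* (-0.50), and the antiporter *VCX1* (-0.25) fell. With library size only *CCH1* missed the threshold (log2 fold change -0.14) and the signs of *MID1* (0.02) and *VCX1* (0.27) turned, and *VCX1* was not past it without untreated replicate 2. Of the catalytic subunits of calcineurin, *CMP2* rose (log2 fold change 0.96). The other one, *CNA1*, was near the threshold (log2 fold change -0.25, adjusted p = 0.0428 in edgeR), turned sign with library size only (0.27) and was not past the threshold without replicate 1 or 2 of either group.

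General stress genes, most of them known targets of Msn2 and Msn4, formed the list with the highest median (2.36). Of 28 members, 25 were higher and 0 were lower. At an unadjusted p-value under 0.05 in edgeR 0 members were lower, and 0 were lower in DESeq2. *RTS3* had 1163, 888 and 865 CPM in treated cells and 26.7, 28.0 and 29.6 CPM in untreated cells (log2 fold change 5.11, SE 0.16, adjusted p = 4.50e-08 from edgeR). *DDR2* had 594, 269 and 353 CPM in treated cells and 15.4, 11.6 and 10.6 CPM in untreated cells (log2 fold change 5.02, SE 0.35, adjusted p = 5.70e-06 from edgeR), and *HSP12*, a membrane-stabilizing stress protein, had 1917, 1582 and 1247 CPM in treated cells and 195, 155 and 196 CPM in untreated cells (3.12). In all 3 genes the treated libraries were well above the untreated ones. The cytosolic catalase *CTT1* rose less (log2 fold change 2.46), while *MSN2* was not past the threshold (0.09). *MSN4* was near the threshold (log2 fold change 0.42, adjusted p = 0.0424 in edgeR) and was not past it when any of the 6 libraries other than treated replicate 2 was left out. The other members not past it were *YGP1* (log2 fold change 0.14), which was past it without treated replicate 2 (0.40), and *GPD1* (0.34), which was past it without untreated replicate 3 (0.48).

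The stress response element AGGGG lies in 25 of the 28 promoters of this list and in 34.1% of all promoters, a share that the choice of the list sets in part, since lists of regulator targets were written from knowledge of these regulators. It was present in 41.7% of promoters of genes that rose and in 28.1% of those of genes that fell. A match is shown for *DDR2* and *HSP12*, on the strand of the gene and with the match in capitals, as the reverse complement in *DDR2*. The promoter of *DDR2* held 4 matches and that of *HSP12* held 5.
DDR2 (chrXV:231914-231941, minus strand): gtcttttctcaCCCCTtatgggacatca
HSP12 (chrVI:106868-106895, plus strand): acgtagtaaagAGGGGaaaaggaaaagg

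Of 28 heat shock and chaperone genes, 11 were higher and 12 were lower, shares close to those of all genes (39.4% and 37.0%), and the median of -0.23 turned to 0.29 with library size only. Among the increases, the mitochondrial disaggregase *HSP78* had 621, 513 and 520.5 CPM in treated cells and 118, 129.7 and 132 CPM in untreated cells (log2 fold change 2.12, SE 0.11, adjusted p = 1.69e-07 from edgeR). The inducible Hsp70 *SSA4* had 252, 204 and 203 CPM in treated cells and 56.7, 49.3 and 59.5 CPM in untreated cells (log2 fold change 1.99), and the cytosolic disaggregase *HSP104* (1.21) and the Hsp90 gene *HSP82* (0.86) rose as well. The ribosome-bound Hsp70 genes *SSB1* (log2 fold change -2.68) and *SSB2* (-2.29), whose sequences are nearly identical so that counts may be split between them, were both lower. *SSB1* had 631, 792 and 803 CPM in treated cells and 4488, 4926 and 4892 CPM in untreated cells, with no overlap. The constitutive Hsp90 gene *HSC82* (log2 fold change -0.94) and the mitochondrial Hsp70 cochaperone *MGE1* (-1.74) were also lower. Among 31 genes of oxidative stress defense, 15 were higher and 8 were lower (median 0.30). The peroxiredoxin *TSA2* rose (log2 fold change 2.81, SE 0.15, adjusted p = 2.10e-07 from edgeR), with 139, 129 and 132 CPM in treated cells and 25.1, 16.7 and 15.4 CPM in untreated cells, as did *SRX1* (2.12), which reactivates peroxiredoxins. The cytosolic superoxide dismutase *SOD1* fell (log2 fold change -1.66), with 385, 352 and 334 CPM in treated cells and 1108, 1169 and 1099.9 CPM in untreated cells, and so did the thioredoxin *TRX1* (-1.49) and its reductase *TRR1* (-1.47).

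Glycolysis and ethanol fermentation, the main route of carbon in these cells, fell in 14 of 21 genes and rose in 5 (median -1.39). Each of the 14 decreases was at least 1 on the log2 scale. *ADH1*, the main alcohol dehydrogenase of fermentation, had 1558, 2159 and 1420.1 CPM in treated cells and 11017, 11898 and 12304 CPM in untreated cells (log2 fold change -2.78, SE 0.19, adjusted p = 7.82e-07 from edgeR). *PDC1*, pyruvate decarboxylase, had 5019, 6826 and 5061 CPM in treated cells and 13516, 15430.0 and 15438 CPM in untreated cells (log2 fold change -1.39, SE 0.17, adjusted p = 4.74e-05 from edgeR). All 3 treated libraries lay below the untreated ones for both genes, and treated replicate 2 was the highest of the treated libraries. The glyceraldehyde-3-phosphate dehydrogenase genes *TDH2* (log2 fold change -2.66) and *TDH3* (-1.47), between which reads may be split, were both lower. The increases were isoenzymes, namely *HXK1* (log2 fold change 2.11), *GLK1* (1.16), *PYK2* (1.83), *ENO1* (0.55) and *PDC6*. Hexokinase 1 and hexokinase 2 moved in opposite directions. *HXK1* had 1257, 1049 and 871 CPM in treated cells and 251, 212 and 274 CPM in untreated cells (log2 fold change 2.11, SE 0.16, adjusted p = 1.70e-06 from edgeR), whereas *HXK2*, chosen for comparison after its values were seen, had 467, 836 and 477 CPM in treated cells and 2333, 2510.0 and 2422 CPM in untreated cells (-2.03). *PDC6*, a minor pyruvate decarboxylase, had 82, 28 and 83 counts in treated libraries and 3, 11 and 1 counts in untreated libraries, so its change (log2 fold change 3.29, adjusted p = 0.00167 in edgeR, and 4.61 without untreated replicate 2) rests on few counts.

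Genes of hexose transport and sensing, which include sensors and regulators, rose in 11 of 15 cases tested, while 1 fell and 8 further members had too few counts to be tested. *HXT5*, a transporter known for its expression in slowly growing cells, had 333, 191 and 170.1 CPM in treated cells and 1.61, 2.42 and 1.27 CPM in untreated cells (log2 fold change 7.03, SE 0.42, adjusted p = 2.35e-06 from edgeR). This was among the largest changes of all genes, but the untreated levels were not far above that of 3 counts. *MTH1*, a repressor of *HXT* genes that acts when glucose is low, had 341, 207 and 254 CPM in treated cells and 34.6, 34.5 and 38.0 CPM in untreated cells (log2 fold change 2.90, SE 0.18, adjusted p = 7.93e-07 from edgeR). The low-affinity transporter *HXT1* rose slightly, with 1153, 1128 and 1107 CPM in treated cells and 773, 819 and 844 CPM in untreated cells (log2 fold change 0.48). The only decrease was in *HXT3*, also of low affinity, with 2037, 1579 and 1555 CPM in treated cells and 2555, 2383 and 2570.4 CPM in untreated cells (log2 fold change -0.54, adjusted p = 0.00669 in edgeR), and it missed the threshold under library size only (-0.02). *HXT6* and *HXT7*, which are nearly identical and cannot be read apart with certainty, rose by 1.89 and 1.11. The median of the list was 1.03, and it was 0.82 without treated replicate 2.

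Genes of the glyoxylate cycle, gluconeogenesis and acetate use rose in 16 of 20 members (median 1.72). The only decrease was *MDH2* (log2 fold change -0.70), the cytosolic malate dehydrogenase, which missed the threshold with library size only (-0.18). *PCK1*, which catalyzes the committed step of gluconeogenesis, had 54.5, 36.3 and 41.0 CPM in treated cells and 7.37, 6.76 and 5.70 CPM in untreated cells (log2 fold change 2.73, SE 0.21, adjusted p = 1.34e-06 from edgeR). *MLS1*, malate synthase, had 15.1, 10.5 and 16.7 CPM in treated cells and 1.84, 1.21 and 1.06 CPM in untreated cells (log2 fold change 3.35). The untreated levels of *MLS1* were not far above that of 3 counts. The activators of these genes, *CAT8* (log2 fold change 2.85) and *SIP4* (3.35), rose together with them. Levels of these genes stayed low next to glycolysis, with *PCK1* at no more than 54.5 CPM in any library. In the TCA cycle, 14 of 19 genes were higher and 2 were lower, with a median of 0.73. *CIT2*, the peroxisomal citrate synthase, had 924, 901 and 1128 CPM in treated cells and 222, 280.5 and 290.0 CPM in untreated cells (log2 fold change 1.90, SE 0.15, adjusted p = 1.68e-06 from edgeR). The mitochondrial *CIT1* rose less (log2 fold change 0.79), as did the aconitase gene *ACO1* (0.43). The decreases were *IDH2* (log2 fold change -0.27) and *MDH1* (-0.43). Their signs turned with library size only (log2 fold change 0.25 for *IDH2* and 0.09 for *MDH1*), and neither gene was past the threshold without untreated replicate 3, nor *IDH2* without untreated replicate 2.

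The respiratory chain and ATP synthase did not share this increase as a group. Of 38 genes, 15 were higher, 9 were lower and 14 were not past the threshold (median 0.10, against 0.05 for all genes). The share higher, 39.5%, was that of all genes (39.4%), and the share lower was 23.7% against 37.0%. Without treated replicate 2 there were 12 higher and 11 lower. Of the 9 decreases with all libraries, 2 were at least 1 in size on the log2 scale, and the lowest value of the list was -1.64. The largest decreases among members with at least 10 CPM in a group were in *CYC7*, cytochrome c isoform 2, and *ATP19*, an ATP synthase subunit. All but 4 of the 15 increases were below 1 on the log2 scale. The 4 were the NADH dehydrogenases *NDE2* (log2 fold change 4.98) and *NDI1* (1.24) and the cytochrome oxidase subunits *COX26* (4.14) and *COX5B* (1.21). *NDE2* had 249, 124 and 161 counts in treated libraries and 1, 3 and 9 counts in untreated libraries, and *COX26* had 184, 77 and 152 counts in treated libraries and 8, 4 and 6 counts in untreated libraries, so that both fold changes rest on few counts, and that of *NDE2* was 5.99 on the log2 scale without untreated replicate 3.

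Genes of storage carbohydrates rose. Of 21 genes of trehalose and glycogen, 18 were higher and 1 was lower (median 1.12). *GLC3*, the branching enzyme of glycogen, had 467, 439 and 381 CPM in treated cells and 52.3, 39.1 and 50.024 CPM in untreated cells (log2 fold change 3.18, SE 0.13, adjusted p = 8.82e-08 from edgeR). *GSY2*, glycogen synthase, had 649, 616 and 597 CPM in treated cells and 187, 149 and 199.7 CPM in untreated cells (log2 fold change 1.80). Genes of breakdown rose as well, with glycogen phosphorylase *GPH1* (log2 fold change 1.54), the vacuolar glucoamylase *SGA1* (3.00) and the trehalase *NTH1* (1.57). *TPS1*, trehalose-6-phosphate synthase, rose by 0.88. The decrease was in *PGM1* (log2 fold change -0.76), which missed the threshold with library size only (-0.24) and whose isoenzyme *PGM2* rose (1.55).

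**Figure D4:**
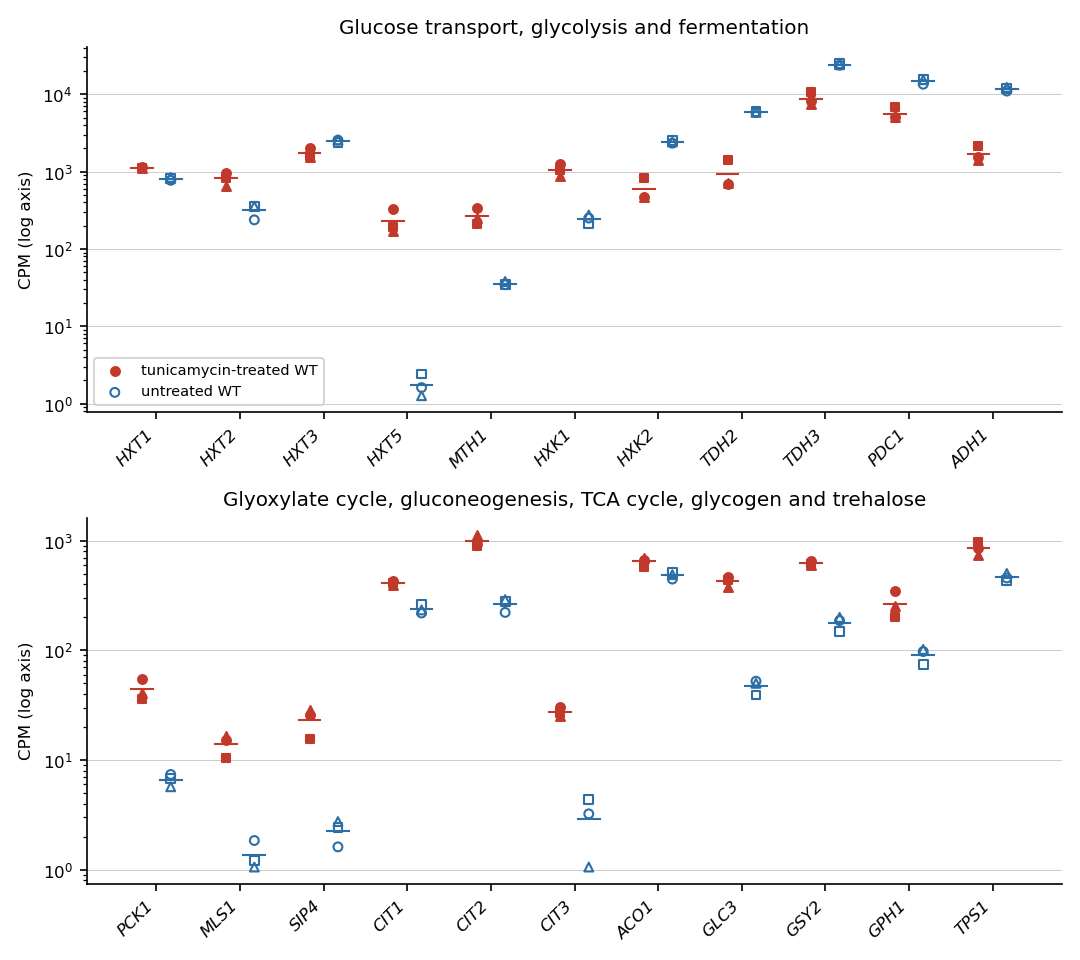
Levels of genes of carbon metabolism in CPM (log axis), with filled red symbols for the 3 tunicamycin-treated libraries to the left of open blue symbols for the 3 untreated libraries, symbol shape for the replicate number and lines for group means. In the upper panel the treated libraries lay below the untreated ones for *HXK2*, *TDH2*, *TDH3*, *PDC1* and *ADH1* and above them for *HXT5*, *MTH1* and *HXK1*, and in the lower panel they lay above them for all 11 genes.

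Lists of the translation machinery had the 3 lowest medians. Of 137 cytosolic ribosomal protein genes, 136 were lower and 0 were higher, with a median of -2.83 (-2.31 with library size only). Together they took 3.203%, 4.004% and 4.297% of all counts in the treated libraries, against 19.5%, 18.2% and 17.9% in the untreated libraries. *RPL3* had 1031, 1367 and 1323 CPM in treated cells and 7189.6, 7375 and 7434 CPM in untreated cells (log2 fold change -2.56, SE 0.16, adjusted p = 3.59e-07 from edgeR). Counts of paralogous ribosomal protein genes may be split between copies, yet only *RPL15B* escaped the decrease (log2 fold change 0.15, adjusted p = 0.181 in edgeR). It had 69.6, 80.8 and 71.0 CPM in treated cells and 59.9, 68.4 and 70.5 CPM in untreated cells, while the copy with the higher level, *RPL15A*, fell (log2 fold change -2.80). All 64 ribosome assembly and RNA polymerase I genes fell (median -1.61, range -3.29 to -0.36). *NSR1*, a nucleolar protein of pre-rRNA processing, had 143, 146 and 165 CPM in treated cells and 1036, 1059 and 1067 CPM in untreated cells (log2 fold change -2.80, SE 0.11, adjusted p = 8.61e-08 from edgeR), and *DBP2*, an RNA helicase, had 115, 116 and 145 CPM in treated cells and 1225, 1241 and 1221 CPM in untreated cells (-3.29). Of 31 translation factors, 30 fell (median -1.80). The exception was *HEF3*, a paralog of elongation factor 3, with 71.7, 55.4 and 58.9 CPM in treated cells and 16.6, 17.6 and 17.1 CPM in untreated cells (log2 fold change 1.86), while *YEF3*, the main gene, fell (-2.02). Mitochondrial ribosomal protein genes fell less, with 54 of 67 list members lower, 1 higher and a median of -0.64 (-0.12 with library size only). The member that rose was *MRP8* (1.46), whose product the annotation gives only as Mrp8p and not as a ribosomal protein.

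The PAC element GATGAG of ribosome assembly promoters is shown for these members, on the strand of the gene and as the reverse complement in capitals. It lies in 61 of the 64 promoters of the list and in 28.3% of all promoters. It was present in 24.1% of promoters of genes that rose and in 35.5% of those of genes that fell, the opposite order to the stress element.
NSR1 (chrVII:807826-807854, minus strand): tgcaagggcagCTCATCgcaagaacgaaa
DBP2 (chrXIV:413473-413501, plus strand): ttacgccgatgCTCATCgcagaaaatttt

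Amino acid metabolism rose in parts. Of 63 genes tested of amino acid biosynthesis and its control, 36 were higher and 18 were lower (median 0.59, 0.78 without treated replicate 2). *ARG3*, the ornithine carbamoyltransferase, had 346, 198 and 520.1 CPM in treated cells and 29.7, 38.7 and 38.0 CPM in untreated cells (log2 fold change 3.32, SE 0.35, adjusted p = 6.20e-05 from edgeR). *HIS4* of histidine synthesis rose too (log2 fold change 1.81), and treated replicate 2 was the lowest treated library for both genes. The transcript of their activator *GCN4* was lower, with 638, 559 and 583 CPM in treated cells and 990.0, 1016 and 1043 CPM in untreated cells (log2 fold change -0.78, SE 0.11, adjusted p = 1.16e-04 from edgeR), but it missed the threshold under library size only (-0.26). Gcn4 is known to be controlled mainly by translation, which these counts do not measure. The decreases included *LEU1* (log2 fold change -1.85) of leucine synthesis and *SER2* (-2.12) of serine synthesis. The Gcn4 site TGACTC lies in 44 of 65 promoters of the list and in 12.7% of all promoters. A match is shown for *ARG3*, on the strand of the gene and in capitals, whose promoter held 2.
ARG3 (chrX:268474-268502, plus strand): gggtcacgtcgTGACTCatatgctttctt

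Sulfate assimilation and methionine synthesis had the second-highest median of the lists (2.13), with 18 of 24 members higher and 5 lower. *MET17*, which joins sulfide to the carbon chain, had 0 counts in every library, so no transcript was counted for the step that uses the product of the route. *STR3*, cystathionine beta-lyase, had 933, 565 and 975 CPM in treated cells and 14.975, 18.6 and 17.5 CPM in untreated cells (log2 fold change 5.60, SE 0.25, adjusted p = 1.14e-07 from edgeR). The sulfate permease *SUL1* had 159, 61 and 130 counts in treated libraries and 0, 4 and 3 counts in untreated libraries, so that the size of its change (log2 fold change 5.22, and 5.87 without untreated replicate 2) rests on few counts. *MET3*, ATP sulfurylase, had 275, 141 and 316 CPM in treated cells and 54.6, 50.007 and 53.8 CPM in untreated cells (log2 fold change 2.21), and the regulators *MET28* (4.90) and *MET32* (3.36) rose. The genes that turn methionine into S-adenosylmethionine and onward to cysteine fell, with *SAM1* (log2 fold change -0.87), *SAM2* (-1.58), *SAH1* (-3.01), *CYS4* (-1.27) and *CYS3* (-0.37). With library size only *SAM1* missed the threshold (log2 fold change -0.34) and the sign of *CYS3* turned (0.15), and *CYS3* was not past the threshold without untreated replicate 2 or 3. *SAH1*, which clears S-adenosylhomocysteine, had 273, 454 and 286 CPM in treated cells and 2619.9, 2766 and 2777 CPM in untreated cells (log2 fold change -3.01, SE 0.21, adjusted p = 7.54e-07 from edgeR). Treated replicate 2 had the smallest change, at 1.44 for the list against 2.31 in each of the other treated libraries. *MET6*, methionine synthase, was not past the threshold (log2 fold change 0.50, adjusted p = 0.0577 in edgeR) but was past it without this library (0.71).

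Nitrogen catabolite repression keeps genes silent when preferred nitrogen sources are ample. In a list of its targets, their regulators and other genes of nitrogen use, 25 of 29 members rose (median 1.30). *MEP1*, an ammonium permease, had 66.2, 75.0 and 57.9 CPM in treated cells and 8.52, 8.94 and 9.71 CPM in untreated cells (log2 fold change 2.87, SE 0.14, adjusted p = 1.29e-07 from edgeR). *GAP1*, the general amino acid permease, had 65.5, 40.8 and 64.1 CPM in treated cells and 24.9, 18.1 and 19.6 CPM in untreated cells (log2 fold change 1.44). Their activators *GLN3* (log2 fold change 1.89) and *GAT1* (1.5) rose. The only decrease of the list was the asparaginase *ASP1* (-1.71), which is not taken here as a repressed gene. The GATA element GATAAG lies in 22 of 30 promoters of the list and in 22.8% of all promoters. That of *MEP1* is given on the strand of the gene.
MEP1 (chrVII:733223-733251, minus strand): attgcgataacGATAAGattcacaattgc

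Among amino acid and peptide permeases, 20 of 25 rose (median 0.92), with the methionine permeases *MUP1* (2.28) and *MUP3* (2.46), the S-methylmethionine permease *MMP1* (2.38) and the broad-range *AGP1* (1.77). The decreases were *TAT1* (log2 fold change -2.18) and *GNP1* (-1.06). In the catabolism of aromatic amino acids only a part of the genes moved, with 5 of 10 higher and 2 lower. *ARO9*, the transaminase of this route, had 519, 352 and 646 CPM in treated cells and 6.22, 5.56 and 4.85 CPM in untreated cells (log2 fold change 6.51, SE 0.28, adjusted p = 1.31e-07 from edgeR). *ARO10*, the decarboxylase that follows it, had 4134, 3478 and 5275 counts in treated libraries against 3, 4 and 1 counts in untreated ones. Their activator *ARO80* rose less (log2 fold change 1.42), and the constitutive transaminase *ARO8* was not past the threshold (0.09). Genes of multidrug resistance, a list of transporters with some of their regulators and lipid enzymes, rose in 15 of 25 cases and fell in 6 (median 0.40). The Pdr1 and Pdr3 element CCGCGG, searched on both strands, lies in 5 of 25 promoters of this list and in 3.16% of all promoters. *PDR5*, the major drug exporter, was slightly lower, with 985, 999 and 979.9 CPM in treated cells and 1213, 1406 and 1217 CPM in untreated cells (log2 fold change -0.37, adjusted p = 0.0152 in edgeR), and its sign turned with library size only (0.15). It was not past the threshold without untreated replicate 2. *RTA1*, a membrane protein linked to resistance against lipid-like drugs, had 99, 191 and 126 counts in treated libraries and 3, 2 and 0 counts in untreated ones.

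Metal transport genes changed in both directions. Of 15 genes of zinc and copper transport, 9 rose and 3 fell (median 1.19). The high-affinity zinc transporter *ZRT1* had 2023, 1634 and 2226 CPM in treated cells and 517, 251 and 393 CPM in untreated cells (log2 fold change 2.34, SE 0.25, adjusted p = 2.66e-05 from edgeR). Its activator *ZAP1* (log2 fold change 1.97) rose too, while the vacuolar zinc transporter *ZRC1* (-1.18) and the copper transporter *CTR1* (-2.38) fell. The metallothionein copies *CUP1-1* and *CUP1-2* are repeats of 1 gene and had the same values (log2 fold change 1.48 each). In iron uptake and economy, 15 of 29 genes rose and 8 fell (median 0.33). The reductive uptake pair *FET3* (log2 fold change -1.49) and *FTR1* (-1.26) and the siderophore transporter *SIT1* (-2.10) fell, whereas the heme oxygenase *HMX1* (1.97) and the cell wall siderophore protein *FIT1* (1.5) rose. *FET3* had 372, 263 and 593 CPM in treated cells and 1148, 1034 and 1262 CPM in untreated cells, with no overlap. The site TGCACCC of the iron regulator Aft1 lies in 21 of 30 promoters of this list and in 2.32% of all promoters, on either strand. In a list of the phosphate regulon and of acid phosphatases, not all of them set by phosphate, 6 of 24 genes rose and 14 fell. The median was -0.50 (0.02 with library size only). The acid phosphatase *PHO3* had 26.4, 22.5 and 30.2 CPM in treated cells and 378, 413 and 427 CPM in untreated cells (log2 fold change -3.94, SE 0.12, adjusted p = 3.81e-08 from edgeR), and the high-affinity transporter *PHO84* had 49.0, 35.0 and 40.2 CPM in treated cells and 147, 146 and 111 CPM in untreated cells (-1.70). The glycerophosphodiesterase *GDE1* (log2 fold change 1.89) and the transporter of glycerophosphoinositol *GIT1* (1.73) rose.

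In all 3 lists of lipid synthesis more genes fell than rose. Of 32 genes of fatty acids and sphingolipids, 24 were lower and 7 were higher (median -0.99). *ACC1*, acetyl-CoA carboxylase and the committed step of fatty acid synthesis, had 178, 252 and 168 CPM in treated cells and 1390.1, 1521 and 1541 CPM in untreated cells (log2 fold change -2.90, SE 0.17, adjusted p = 2.82e-07 from edgeR). *ELO2*, an elongase of very long chain fatty acids, had 27.6, 44.1 and 30.7 CPM in treated cells and 371, 379.5 and 371 CPM in untreated cells (log2 fold change -3.45, SE 0.16, adjusted p = 1.08e-07 from edgeR). Both genes were far below the untreated range, and *ELO3* moved alike (log2 fold change -3.08). *OLE1*, the fatty acid desaturase, fell as well (log2 fold change -1.60, and -2.19 without treated replicate 2), and treated replicate 2 lay above the other treated libraries, with 306, 708 and 268 CPM in treated cells and 1304, 1264 and 1322 CPM in untreated cells. Increases were found in late steps and in the control of sphingolipids. *SUR1*, which mannosylates inositol phosphorylceramide, had 404, 427 and 353 CPM in treated cells and 78.3, 81.4 and 84.9 CPM in untreated cells (log2 fold change 2.27, SE 0.10, adjusted p = 9.20e-08 from edgeR). *ORM2*, an inhibitor of serine palmitoyltransferase, rose (log2 fold change 1.34) while its paralog *ORM1* fell (-0.92), and the ceramidases *YPC1* (0.94) and *YDC1* (0.72) rose.

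Of 31 genes for inositol and glycerophospholipids, 19 were lower and 9 were higher (median -0.64). *CDS1*, which makes CDP-diacylglycerol for the main route of phospholipid synthesis, had 33.0, 38.7 and 36.0 CPM in treated cells and 272, 278 and 284 CPM in untreated cells (log2 fold change -2.95, SE 0.09, adjusted p = 3.25e-08 from edgeR). The choline transporter *HNM1* had 78.2, 81.3 and 72.9 CPM in treated cells and 526, 523 and 514 CPM in untreated cells (log2 fold change -2.75, SE 0.10, adjusted p = 6.00e-08 from edgeR). Further decreases were in the inositol transporter *ITR1* (log2 fold change -2.60) and in the consecutive enzymes of phosphatidylserine and phosphatidylethanolamine synthesis, *CHO1* (-2.48) and *PSD1* (-2.15). *INO1*, the inositol synthase that is often used as a readout of the inositol response, was not past the threshold (log2 fold change 0.63, adjusted p = 0.0634 in edgeR), with 56.9, 101 and 48.8 CPM in treated cells and 39.4, 47.3 and 46.6 CPM in untreated cells. It was past it without treated replicate 1 (log2 fold change 0.74) or 3 (0.82). The increases included cardiolipin synthase *CRD1*, with 57.0, 56.3 and 69.6 CPM in treated cells and 26.7, 29.2 and 28.1 CPM in untreated cells (log2 fold change 1.12), its upstream enzyme *TAM41* (0.89), and the phosphatidate phosphatase *PAH1* (1.02). The phosphatase between these cardiolipin enzymes, *GEP4*, fell (log2 fold change -1.23). In sterol synthesis and its control, 18 of 27 genes fell and 3 rose, with a median of -0.60. The increases were *ERG27* (log2 fold change 0.79), *ERG7* (0.60) and *ERG8* (0.25), of which *ERG8* was not past the threshold without treated replicate 1 or untreated replicate 1 or 2. The methyltransferase gene *ERG6* had 144, 242 and 159 CPM in treated cells and 499, 557 and 532 CPM in untreated cells (log2 fold change -1.54, SE 0.18, adjusted p = 4.08e-05 from edgeR). *ERG11*, the target of azole drugs, fell less (log2 fold change -0.50) and changed sign with library size only (0.02).

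Genes of autophagy and vacuolar breakdown rose. Of 18 core autophagy genes, 15 were higher and 0 were lower, with 0 lower at an unadjusted p-value under 0.05 and 0 lower in DESeq2 (median 1.24). *ATG1*, the kinase that starts autophagy, had 211, 159.7 and 207 CPM in treated cells and 26.7, 25.6 and 28.3 CPM in untreated cells (log2 fold change 2.84, SE 0.13, adjusted p = 9.20e-08 from edgeR). *ATG8*, the ubiquitin-like protein of the autophagosome membrane, had 69.2, 74.4 and 59.3 CPM in treated cells and 15.9, 14.0 and 22.4 CPM in untreated cells (log2 fold change 1.95). Of 13 vacuolar hydrolases and related genes, 12 rose and none fell (median 1.31, 0 lower at an unadjusted p-value under 0.05 in edgeR and 0 in DESeq2). *PRB1*, vacuolar proteinase B, had 1732, 1827 and 1397 CPM in treated cells and 207, 206 and 226 CPM in untreated cells (log2 fold change 2.96, SE 0.14, adjusted p = 1.17e-07 from edgeR), and the alpha-mannosidase *AMS1* had 406, 488 and 316 CPM in treated cells and 22.1, 16.2 and 16.9 CPM in untreated cells (4.45). Of 34 genes of the proteasome and its control, 25 fell and 2 rose, one of them *RPN4* (log2 fold change 1.26), the transcription factor of proteasome genes, and the other *RPN13* (0.37). The median of -0.51 came to 0.01 with library size only, so the direction of the subunits depends on the scaling. *RPN4* had 302, 303 and 279 CPM in treated cells and 114, 125 and 129.6 CPM in untreated cells, with no overlap.

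Cyclin genes changed in both directions. The mitotic cyclin *CLB2* had 17.4, 21.4 and 21.7 CPM in treated cells and 77.4, 79.2 and 93.7 CPM in untreated cells (log2 fold change -2.05, SE 0.12, adjusted p = 3.32e-07 from edgeR), and *SWI5*, a transcription factor expressed with it, fell too (-2.07). The S phase cyclin *CLB6* had 1, 4 and 0 counts in treated libraries and 39, 43 and 53 counts in untreated libraries. Of the G1 cyclins, *PCL1* (log2 fold change 2.09), *PCL2* (1.29), *CLN1* (0.73) and *CLN3* (0.68) rose, but *CLN2* was not among the genes that rose. *PCL1* had 117, 236 and 199.7 CPM in treated cells and 52.3, 36.0 and 41.6 CPM in untreated cells, so every treated library was higher. In total, 11 of 20 genes of cyclins and cell cycle control fell and 4 rose, with a median of -0.46 that came to 0.06 with library size only. The share of cells in each phase was not measured. Of 11 histone genes, 9 fell (median -0.57, -0.05 with library size only), led by the linker histone *HHO1* (-1.87) and *HTB2* (-1.38). The treated libraries stood at -0.44, -1.04 and -0.56, so replicate 2 was again the lowest. *ACT1*, which encodes actin and serves often as a reference gene, had 2031, 2252 and 1750.1 CPM in treated cells and 2368, 2389.9 and 2403 CPM in untreated cells and was not past the threshold (log2 fold change -0.25, adjusted p = 0.121 in edgeR), a call that DESeq2, a fit with all 12 libraries and leaving out treated replicate 2 (-0.35) each changed.

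Genes specific to mating type a made up the list on which the treated libraries differed most from each other. Relative to untreated cells its median was 0.38, -1.10 and 0.41 in treated replicates 1, 2 and 3. *STE2*, the receptor for alpha-factor, had 1028, 437 and 1270.0 CPM in treated cells and 1267, 1282 and 1226 CPM in untreated cells, so replicate 2 alone was far below the untreated range (adjusted p = 0.243 in edgeR for the group). *MFA1*, which encodes a-factor, had 458, 172 and 453 CPM in treated cells and 494, 464 and 417 CPM in untreated cells. With all libraries 1 of 7 genes was higher, *ASG7* (1.02), and 1 was lower, *MFA2* (-1.04), whereas 4 were higher and 1 was lower without treated replicate 2, and the median was 0.38 in place of 0.10. *ASG7* was not past the threshold without treated replicate 1 or 3 or without any of the untreated libraries, and *MFA2* was not past it without untreated replicate 1 or with library size only (log2 fold change -0.52). The alpha-specific receptor gene *STE3* was low in all libraries, with 28.9, 31.0 and 28.3 CPM in treated cells and 4.38, 5.80 and 4.64 CPM in untreated cells (log2 fold change 2.57). The genes for alpha-factor had at most 6 counts in any library. Of 10 genes of meiosis and sporulation tested, 7 rose and none fell (0 lower at an unadjusted p-value under 0.05 in edgeR and 0 in DESeq2), with *HOP1* of the meiotic chromosome axis at 40.4, 53.5 and 33.3 CPM in treated cells and 11.7, 8.46 and 9.71 CPM in untreated cells (log2 fold change 2.08). *IME1*, the inducer of meiosis, was not past the threshold (log2 fold change 0.36).

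**Figure D5:**
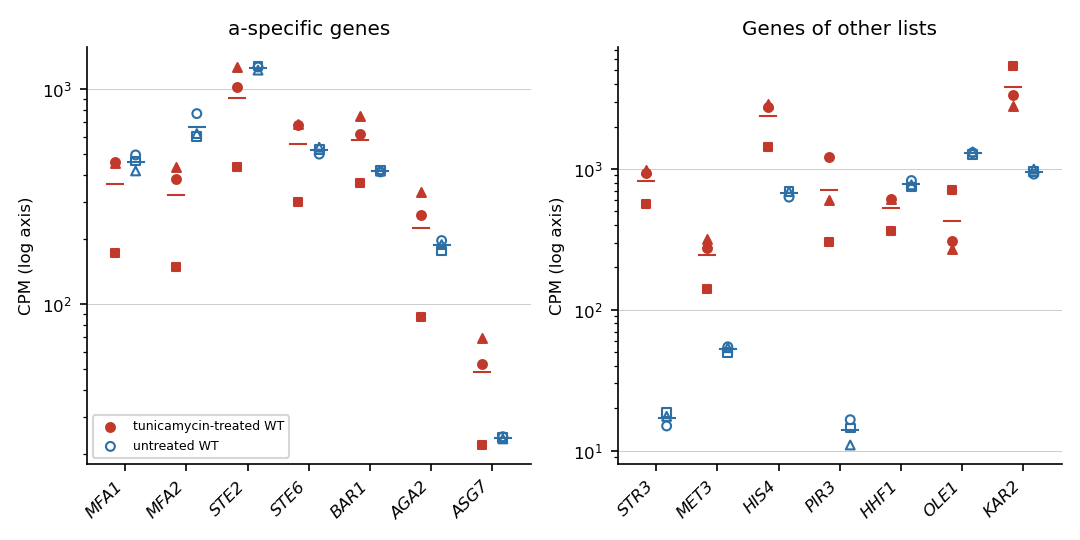
Levels in CPM (log axis) of the a-specific genes (left) and of genes of other lists (right), with filled red symbols for the 3 tunicamycin-treated libraries to the left of open blue symbols for the 3 untreated libraries, squares for replicate 2 and lines for group means. Treated replicate 2 was the lowest treated library for all 7 a-specific genes and for *STR3*, *MET3*, *HIS4*, *PIR3* and *HHF1*, and the highest for *OLE1* and *KAR2*.

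Genes outside these lists were among the largest changes. *BAG7*, a GTPase-activating protein for Rho1, had 149.8, 103 and 109 CPM in treated cells and 2.07, 1.69 and 1.48 CPM in untreated cells (log2 fold change 6.09, SE 0.24, adjusted p = 8.61e-08 from edgeR). *NQM1*, a transaldolase, had 265, 222 and 197 CPM in treated cells and 5.76, 5.56 and 6.75 CPM in untreated cells (log2 fold change 5.23, SE 0.16, adjusted p = 3.25e-08 from edgeR). *CLD1*, a mitochondrial phospholipase that acts on cardiolipin, had 122.68, 92.2 and 103 CPM in treated cells and 3.00, 3.38 and 2.32 CPM in untreated cells (log2 fold change 5.19). In these 3 genes the treated libraries were far above the untreated range, but the untreated levels of *BAG7* were not far above that of 3 counts. *SPG4*, a gene of stationary phase, had 205, 118 and 133 counts in treated libraries and 4, 3 and 0 in untreated ones. *SHH3*, a homolog of a succinate dehydrogenase subunit, had 113, 49 and 57 counts in treated libraries and 0 in each untreated library. The mean treated level of *SHH3* was 17.9 times the largest CPM that 3 counts took in an untreated library. Among the decreases, *YHB1*, the flavohemoglobin that detoxifies nitric oxide, had 29.953, 40.7 and 31.5 CPM in treated cells and 459, 512 and 445 CPM in untreated cells (log2 fold change -3.79, SE 0.14, adjusted p = 6.00e-08 from edgeR). *PLB2*, a lysophospholipase, had 15.6, 20.0 and 16.4 CPM in treated cells and 211, 226 and 212 CPM in untreated cells (log2 fold change -3.64, SE 0.11, adjusted p = 3.25e-08 from edgeR). *ASC1*, the Gbeta-like protein of the small ribosomal subunit, fell with the ribosomal protein genes (log2 fold change -3.40), with 213, 338 and 296 CPM in treated cells and 2928, 3108 and 2904 CPM in untreated cells.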

How the data were processed

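Poly(A) RNA of 3 tunicamycin-treated and 3 untreated WT cultures was sequenced. Estimated counts per gene were deposited by the authors, who quantified reads with kallisto 0.45.0 against sacCer3 and used R 3.5.1 and DESeq2 1.22.2 (per the submitters' processing notes and the methods). The deposited values were whole numbers already and were used as such. The authors' comparison tables, with normalized counts, fold changes and p-values, were not used.

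Of 7110 features, 6146 matched the R64 annotation by name and 270 had 0 counts in all 12 libraries. Library totals ranged from 4650828 to 4778960 counts in treated and from 4964705 to 5684108 counts in untreated libraries, and limits from counts cover counting error only. Genes were filtered with filterByExpr, scaled by TMM and tested with edgeR 4.0.16 (robust quasi-likelihood, R 4.3.3) without covariates, with Benjamini-Hochberg adjustment over all 5785 genes at 0.05. The script was tested on simulated data with 200 of 5785 genes changed and 1 common dispersion. Far more genes changed in the real data, so that test does not check the scaling or the error rate in such a setting. Replicates are biological triplicates per the series text. Alternatives were DESeq2 1.42.0, other scalings and filters, all 12 libraries in 1 fit, a replicate block, other thresholds and leaving out each library, and list counts without treated replicate 2 were added after seeing the data. Promoters were 500 bases before the start codon in RefSeq R64 for 5986 genes, searched on both strands.

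The 43 gene lists and the comparison were chosen with earlier results of these data known. Genes were named by a rule. It took the 15 largest increases and decreases among genes past the threshold with no overlap and at least 10 CPM in a group, the key genes of each list, the 2 largest increases and decreases of each list, and genes that the study's text names. Not all of them are printed, and 1 item is not reported here. Reads of near-identical copies may be split between genes.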

Additional observations from a re-analysis of the deposited data

How the results depend on the processing

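The 4417 genes past the threshold, 2278 higher and 2139 lower, came to 4266 with DESeq2 (4231 shared), 4389 with DESeq2 size factors, 4439 with upper quartile scaling, 4385 with TMM factors from genes other than ribosomal proteins, 4491 of 6791 without a filter, 4213 of 5502 with at least 10 counts in every library, 4521 of 5828 with all 12 libraries and 3866 at an adjusted p-value under 0.01. With library size only, 4709 genes passed, of which 3491 were higher and 1218 were lower, so that 25.9% of calls were lower, against 48.4% with TMM. A minimum change of 1 left 2023 genes, 1033 higher and 990 lower. Leaving out 1 library gave between 4097 (without untreated replicate 3) and 4574 (without treated replicate 2). With a replicate block, 4350 genes passed, 2239 higher and 2111 lower. The correlations of deviations between same-numbered libraries were -0.010, 0.025 and -0.019, so the numbers were not taken as pairs, and treated replicate 1 correlated best with untreated replicate 3. *ALG7* passed the threshold with the block (-0.38), as did *INO1* (0.57).

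Signs of list medians turned with library size only for N-glycan synthesis (0.13), ER to Golgi transport (0.22), O-mannosyltransferases (0.48), heat shock chaperones (0.29), the phosphate regulon (0.017), the proteasome (0.0083), cyclins (0.064) and actin and tubulin (0.054). That of O-mannosyltransferases also turned with upper quartile scaling (0.018) and ranged from -0.20 to 0.055 when a library was left out, and that of a-specific genes from -0.13 to 0.38. Among named genes past the threshold, the sign turned with library size only for *CNA1* (0.27), *CWP2* (0.076), *CYS3* (0.15), *EPS1* (0.18), *ERG11* (0.020), *IDH2* (0.25), *MDH1* (0.091), *MID1* (0.016), *MNL1* (0.28), *MNL2* (0.26), *PDR5* (0.15) and *VCX1* (0.27). Among those not past it, it turned for *ACT1* (0.27), *ALG7* (0.17), *BCK1* (0.32), *CDC48* (0.38), *CNE1* (0.31), *ERV2* (0.21), *FKS1* (0.46), *MFA1* (0.18), *PMT2* (0.29), *SEC61* (0.35), *STE2* (0.060) and *SWP1* (0.44), and for *FKS1* also with upper quartile scaling (0.0022). With library size only, *CCH1*, *CPR5*, *GCN4*, *GNA1*, *HHF1*, *HXT3*, *MDH2*, *MFA2*, *PGM1*, *PMT5*, *SAM1*, *SSM4*, *STT3*, *TRL1* and *UBC6* kept their sign but were not past the threshold. Leaving out 1 library also turned the values of *FKS1* (-0.20 to 0.040), *MKK1* (-1.8e-04 to 0.10), *PMT1* (-0.025 to 0.28) and *YGP1* (-0.21 to 0.40). Of 261 named genes, 201 kept their direction and side of the threshold in all 15 alternative fits. The cause of these changes was not tested.

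Depth limits genes with few counts. A count of 3 corresponds to 0.517 to 0.725 CPM, and the fold changes of *SUL1*, *PDC6*, *NDE2*, *COX26*, *SPG4*, *RTA1*, *ARO10* and *SHH3* rest on untreated libraries near or at that floor. The untreated levels of *HXT5*, *MLS1* and *BAG7* were not far above that floor either. Library scaling sets the division into higher and lower genes.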
